A study of Homo sapiens with 15 samples.

Results

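Glycolysis and the transcriptional response to low oxygen were followed through 37 genes, of which 23 encode glucose transporters, glycolytic enzymes and their regulators and 14 encode other genes of the hypoxia response. They were matched by gene symbol to a list of names out of 18338 genes in the tables, and were joined across the tables by gene ID. RNA-Seq was performed on Biosensor cells, a HEK293 (human embryonic kidney) line that stably expresses the repeat domain of tau bearing P301S as a fusion with yellow fluorescent protein, TauRD(P301S)-YFP. All 15 libraries carry this reporter, and no group lacks it. The study asked how tau aggregation affects signaling from the endoplasmic reticulum (ER).

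The control group was 5 libraries of cells transfected with brain protein lysate from wildtype mice for a day, and the PS19 group was 5 libraries of cells transfected likewise with lysate from PS19 mice. PS19 mice carry human tau with the P301S mutation under the Prnp promoter, and the lysates came from adult male littermates. The thapsigargin group was 5 libraries of cells given 0.3 µM thapsigargin, an inhibitor of the calcium pump of the ER that is used to provoke ER stress. Neither the duration of this treatment nor any lysate given alongside it is stated in the sources used here, so an effect of the drug and an effect of lysate transfection cannot be told apart. The paper calls the 5 replicates independent, but neither it nor the labels say whether they were separate cultures or separate brains. P-values therefore reflect library-to-library spread alone, part of which may be technical.

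Glycolysis splits glucose into pyruvate in the cytosol, yielding ATP, and pyruvate is then reduced to lactate or burned in mitochondria. When oxygen is low, the alpha subunit of hypoxia-inducible factor (HIF) is no longer hydroxylated by the EGLN prolyl hydroxylases and destroyed, and the factor raises transcription of glucose transporters, most glycolytic enzymes and genes for vessel growth, mitophagy and collagen modification. Control of HIF alpha is largely at the level of the protein, which was not measured here. Cultured HEK cells rely heavily on glycolysis even in ordinary air.

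Values are FPKM, fragments per kilobase of transcript scaled to the mapped fragments of the library, as the authors deposited them. Summed FPKM ran from 506146 to 552511 in the control libraries, from 523601 to 547043 in the PS19 libraries and from 551499 to 637687 in the thapsigargin libraries, and 15744 to 15932 genes were above 0 in a library. The paper gives a single figure for reads per sample. The depth of each library cannot be read from FPKM, and its counting error is therefore not known. Of 10 kidney and HEK markers, 9 averaged at least 1 FPKM in every group, against 2 of 12 measured brain cell markers. Those 2 were GAD1, at 5.23 to 8.93 FPKM over the libraries, and SYT1, at 0.94 to 2.3 FPKM. GAD1 was above the HEK markers PAX2 (1.59 to 2.02 FPKM) and WT1 (1.54 to 3.49 FPKM). SNAP25 and CSF1R were at or below 0.08 FPKM in every library. All 6 genes of an ER stress check list rose with thapsigargin. Among them DDIT3, a transcription factor of the stress response, went from 10.5 ± 2.64 to 139.7 ± 16.6 FPKM (SD, n = 5), and HSPA5, the main ER chaperone, went from 145.1 ± 15.7 to 953.5 ± 214.9 FPKM.

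Thapsigargin-treated cells had lower mRNA levels of most glycolysis and hypoxia genes than control cells. Genes averaging 1 FPKM or more across all libraries were compared on the log2(FPKM + 0.5) scale with limma, at a Benjamini-Hochberg adjusted p below 0.1, and 34 of the 37 members reached that level. Of the 21 glycolysis genes tested, 15 fell, 1 rose and 5 did not pass. Of the 13 hypoxia genes tested, 10 fell, 1 rose and 2 did not pass. A large part of the transcriptome differed between the thapsigargin and control libraries, where 43.4% of the 11753 genes tested fell and 26.0% rose. The median log2 difference was -0.37 over the glycolysis genes and -0.52 over the hypoxia genes, beside -0.13 over all genes tested. Because that general shift moved with the scaling of the libraries, other scalings were run. The split of higher against lower calls over all genes went from 3058 against 5100 to 2039 against 6424 when rescaled to TPM, to 4014 against 3937 under median-ratio scaling and to 3716 against 4132 under quantile normalization. The number of glycolysis genes that fell was 19, 12 and 18 under those scalings, and the number of hypoxia genes that fell was 11, 9 and 9. In these bulk libraries fewer cells of a kind and less RNA per cell cannot be told apart.

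**Figure D1:**
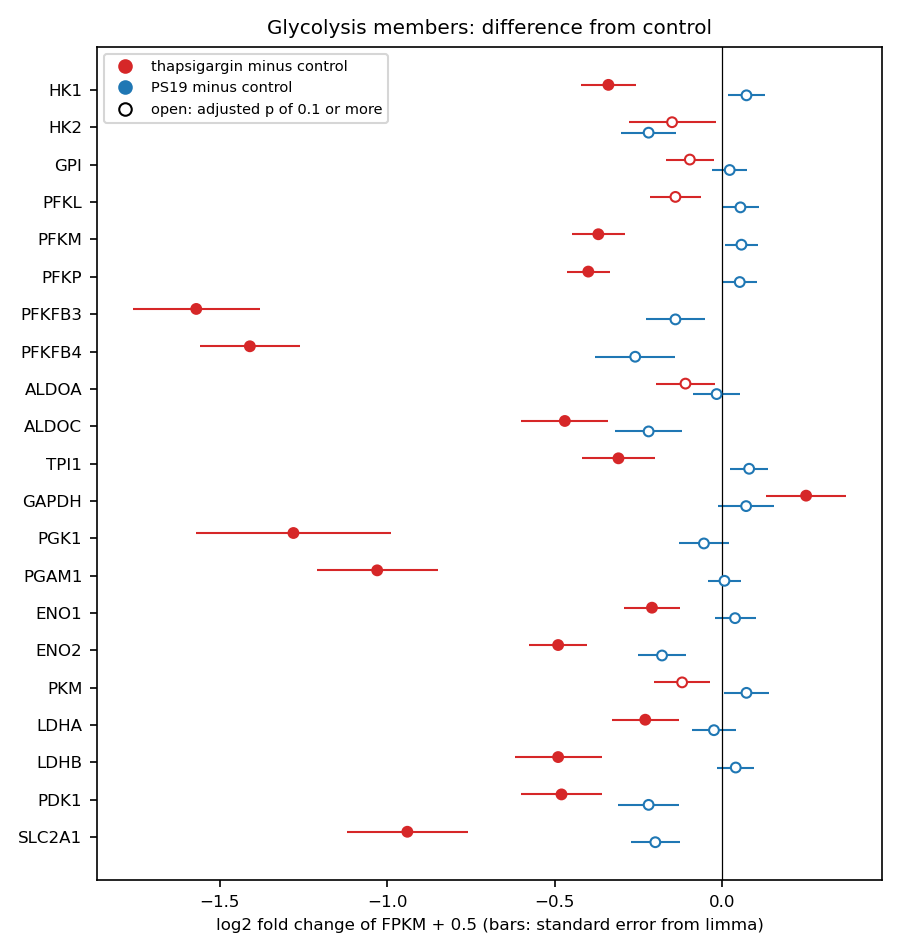
Log2 fold change of FPKM + 0.5 (horizontal axis) for the 21 glycolysis genes tested, for thapsigargin minus control (red) and PS19 minus control (blue). Genes are listed in pathway order with PDK1 and the transporter SLC2A1 last. Bars are standard errors, and filled points passed an adjusted p of 0.1. PFKFB3, PFKFB4, PGK1 and PGAM1 lie furthest to the left at -1.57 to -1.03, GAPDH is the one filled point on the right at 0.25, and every PS19 point is open.

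Glucose uptake came first in the order of the pathway. SLC2A1 encodes GLUT1, the main glucose transporter of most cultured cells. Its levels were 24.02, 29.4, 29.6, 27.4 and 33.4 FPKM in control libraries 1 to 5 and 13.1, 9.09, 19.3, 14.4 and 20.1 FPKM in thapsigargin libraries 1 to 5. Every thapsigargin library lay below every control library, and the log2 difference was -0.94 (SE 0.18, adjusted p = 0.00091). SLC2A3, the neuronal-type transporter GLUT3, was below the filter, at 0.990 to 1.96 FPKM in control and 0.290 to 1.03 FPKM in thapsigargin libraries, which overlapped. It passed as lower in the fit without a filter, with a log2 difference of -0.75 (SE 0.2, adjusted p = 0.012).

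Hexokinases trap glucose in the cell by phosphorylation. HK1, the form found in nearly all tissues, was at 38.7, 41.3, 39.5, 41.6 and 41.6 FPKM in control and 31.1, 27.8, 34.2, 29.7 and 37.2 FPKM in thapsigargin libraries. The groups did not overlap, and the log2 difference was -0.34 (SE 0.083, adjusted p = 0.0036). HK2, the form that responds to insulin and hypoxia, was at 14.2, 18, 18.7, 19.4 and 20.96 FPKM in control and 14.9, 13.2, 20.9, 15.4 and 18.2 FPKM in thapsigargin libraries, with library 3 near the highest control value. The groups overlapped, and its difference of -0.15 (SE 0.13, adjusted p = 0.34) had a 95% interval of -0.43 to 0.14, so a fall like that of HK1 is within it, and it passed as lower without thapsigargin library 3 (adjusted p = 0.094). GPI, which converts glucose phosphate to fructose phosphate, gave -0.097 (SE 0.071, adjusted p = 0.25).

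Phosphofructokinase commits sugar to glycolysis, and the PFKFB enzymes make and remove fructose bisphosphate signals that set its activity. Both regulators fell by more than 1 on the log2 scale in every alternative. PFKFB3, whose kinase activity dominates, stood at 12.4, 15.02, 15.1, 14.1 and 19.5 FPKM in control libraries and at 4.10, 3.46, 6.32, 3.64 and 7.30 FPKM in thapsigargin libraries. Even the highest thapsigargin library was below the lowest control library, and the log2 difference was -1.57 (SE 0.19, adjusted p = 3.9e-05). PFKFB4 was at 6.41, 8.45, 8.97, 7.90 and 11.2 FPKM in control and 2.98, 2.46, 3.13, 2.21 and 3.74 FPKM in thapsigargin libraries. Again the groups were apart, with a log2 difference of -1.41 (SE 0.15, adjusted p = 1.6e-05). The enzyme subunits themselves moved less. PFKP, the platelet-type subunit, gave -0.4 (SE 0.064, adjusted p = 0.00028) and PFKM, the muscle-type subunit, gave -0.37 (SE 0.08, adjusted p = 0.0017), with no overlap of the groups for either. PFKL, the liver-type subunit, gave -0.14 (SE 0.077, adjusted p = 0.12) and overlapped, with a 95% interval of -0.31 to 0.023. PFKL passed as lower under TPM and quantile scaling, with all 15 libraries in 1 fit and without thapsigargin library 1 or 5.

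**Figure D2:**
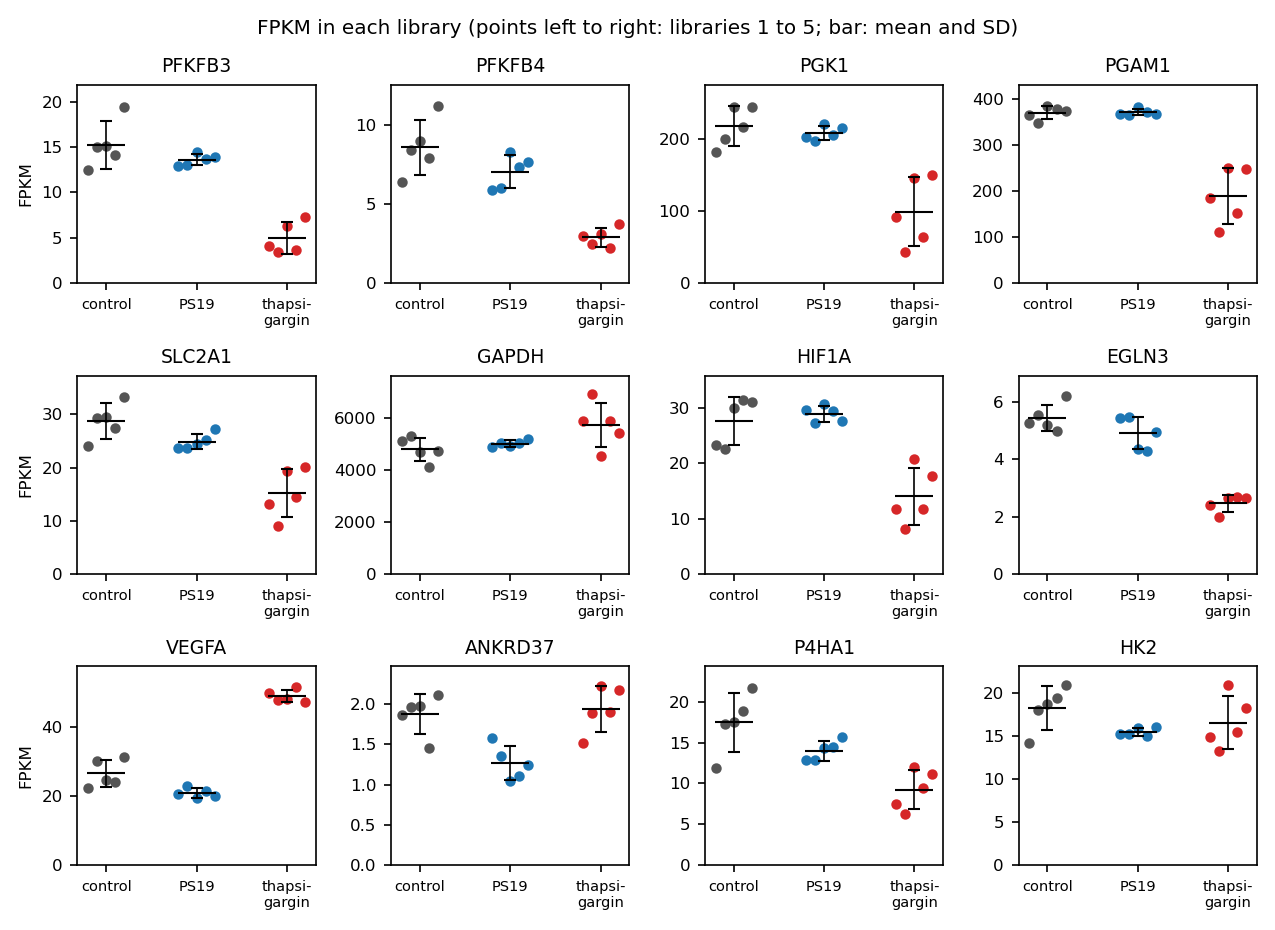
FPKM (vertical axes from 0, a separate scale for each gene) of 12 members in each library of the control, PS19 and thapsigargin groups, with points from left to right for libraries 1 to 5 and the mean with SD in black. Thapsigargin points lie below all control points for PFKFB3, PFKFB4, PGK1, PGAM1, SLC2A1, HIF1A and EGLN3 and above them for VEGFA, and PGK1 spreads from 43.0 to 150.1 FPKM within the thapsigargin group.

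The steps that split and oxidize the sugar diverged between neighbors. GAPDH, which oxidizes glyceraldehyde phosphate and is widely used as a loading control, was the most abundant member, at 5091, 5303, 4683, 4129 and 4726 FPKM in control and 5867, 6922, 4552, 5879.7 and 5418 FPKM in thapsigargin libraries. Library 3 of the thapsigargin group fell within the control range while the other 4 exceeded it, and the log2 difference was 0.25 (SE 0.12, adjusted p = 0.088). Its 95% interval ran from -0.012 to 0.51, and the call was lost when rescaled to TPM, under quantile normalization, without the filter, at an adjusted p of 0.05, and on leaving out control library 3, 4 or 5 or thapsigargin library 1, 2 or 4, with adjusted p up to 0.36.

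PGK1 carries out the next step, the first that yields ATP. It was at 182, 200.3, 244, 216 and 245 FPKM in control and 92.1, 42.95, 146, 63.98 and 150.1 FPKM in thapsigargin libraries. All 5 thapsigargin libraries were lower than all 5 control libraries, but they spread widely, with libraries 2 and 4 lowest, and the log2 difference was -1.28 (SE 0.29, adjusted p = 0.0024). PGAM1, the mutase that follows it, was at 364, 349, 386, 377 and 374 FPKM in control and 186, 112, 249, 152 and 247 FPKM in thapsigargin libraries. The same libraries 2 and 4 were lowest, no library overlapped the controls, and the log2 difference was -1.03 (SE 0.18, adjusted p = 0.00057). GAPDH, PGK1 and PGAM1 catalyze successive reactions, yet the first differed from the others in direction. PGK1, PGAM1, GAPDH, LDHA and other abundant glycolytic genes have processed pseudogenes of near-identical sequence, and how the authors' estimation divided reads among such copies was not tested.

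The remaining enzymes of the lower pathway fell less or did not pass. ALDOA, the main aldolase, gave -0.11 (SE 0.089, adjusted p = 0.3) and PKM, pyruvate kinase, gave -0.12 (SE 0.084, adjusted p = 0.23), and both overlapped the controls. Their scaling mattered, as did that of GPI, since all 3 passed as lower under TPM and quantile scaling and were slightly above 0, without passing, under median-ratio scaling. TPI1, which interconverts the triose phosphates, was at 998 to 1096 FPKM in control and 643 to 984 FPKM in thapsigargin libraries and gave -0.31 (SE 0.11, adjusted p = 0.029), a call lost under median-ratio scaling (adjusted p = 0.15). ENO1, the common enolase, was at 1184 to 1389 FPKM in control and 1041 to 1247 FPKM in thapsigargin libraries. It gave -0.21 (SE 0.083, adjusted p = 0.042), and the call was lost under median-ratio scaling (adjusted p = 0.51) and without control library 2. ALDOC and ENO2, the brain-enriched isozymes of these enzymes, were far scarcer and fell by more, with -0.47 (SE 0.13, adjusted p = 0.007) for ALDOC and -0.49 (SE 0.086, adjusted p = 0.00048) for ENO2. Neither overlapped the controls, though ALDOC did not pass under quantile normalization (adjusted p = 0.21).

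At the end of the pathway lactate dehydrogenase turns pyruvate into lactate. LDHA, the form induced by hypoxia, was at 922, 954, 956, 934 and 961 FPKM in control and 723, 729, 808, 1049 and 751 FPKM in thapsigargin libraries. Thapsigargin library 4 was above every control library and the other 4 were below every control library. The log2 difference was -0.23 (SE 0.1, adjusted p = 0.062), and it did not pass under median-ratio scaling (adjusted p = 0.44), at an adjusted p of 0.05, or on leaving out control library 2, 3 or 5 or thapsigargin library 1, 2 or 5. LDHB, the heart-type form, was at 461, 460.0, 534, 489 and 468 FPKM in control and 312, 269.5, 419, 299.7 and 446 FPKM in thapsigargin libraries. Its groups were apart, with the highest thapsigargin library just below the lowest control library, and the log2 difference was -0.49 (SE 0.13, adjusted p = 0.0063). PDK1, a kinase that inhibits pyruvate dehydrogenase, was at 16.9 to 26.2 FPKM in control and 12.4 to 17.2 FPKM in thapsigargin libraries. It gave -0.48 (SE 0.12, adjusted p = 0.0043). SLC16A3, the lactate exporter MCT4, was listed at 0.09 FPKM or less in all 15 libraries, under the filter, and did not pass without it (adjusted p = 0.35).

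Promoter sequences are shown for 4 genes of these steps because their mRNA levels took different courses with thapsigargin. They cover the 250 bases before the annotated start in the RefSeq table for GRCh38.p14, printed along the strand of the gene, which is the plus strand for all 4. GAPDH lies at chr12:6535014-6535263, PGK1 at chrX:78103998-78104247, PGAM1 at chr10:97427568-97427817 and LDHA at chr11:18394313-18394562. Capitals mark ACGTG or GCGTG, the core letters that HIF binds, or their reverse complements CACGT and CACGC, and the palindrome CACGTG holds the core on both strands and is also the E-box that other factors bind.
GAPDH: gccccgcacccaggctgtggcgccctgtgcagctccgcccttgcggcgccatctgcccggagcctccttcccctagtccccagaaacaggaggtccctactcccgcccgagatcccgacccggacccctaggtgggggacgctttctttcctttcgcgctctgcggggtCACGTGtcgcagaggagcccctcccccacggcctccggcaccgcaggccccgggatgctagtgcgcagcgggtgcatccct
PGK1: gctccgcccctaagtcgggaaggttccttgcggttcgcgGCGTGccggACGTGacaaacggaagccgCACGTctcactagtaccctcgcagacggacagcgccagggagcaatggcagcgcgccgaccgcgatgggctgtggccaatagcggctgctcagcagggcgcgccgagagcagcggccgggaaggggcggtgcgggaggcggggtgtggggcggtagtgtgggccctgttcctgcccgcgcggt
PGAM1: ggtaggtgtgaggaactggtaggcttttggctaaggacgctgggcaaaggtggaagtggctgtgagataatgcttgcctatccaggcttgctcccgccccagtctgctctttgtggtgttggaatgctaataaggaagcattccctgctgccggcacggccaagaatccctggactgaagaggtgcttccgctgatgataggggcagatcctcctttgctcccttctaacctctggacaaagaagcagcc
LDHA: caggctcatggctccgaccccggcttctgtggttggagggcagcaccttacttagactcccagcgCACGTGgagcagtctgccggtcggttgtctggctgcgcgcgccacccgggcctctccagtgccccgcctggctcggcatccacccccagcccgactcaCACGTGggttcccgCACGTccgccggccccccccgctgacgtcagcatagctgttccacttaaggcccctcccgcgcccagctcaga

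The printed stretch of PGK1, which fell, has 3 separate cores, and that of PGAM1, which fell nearly as far, has none. That of GAPDH, which was called higher but lost the call in 10 alternatives, has 1, inside a CACGTG. LDHA has 3, of which 2 are CACGTG. Windows of 300 bases that run 50 bases past the start were searched for 32 of the 37 members. Of these, 23 (71.9%) held a core, against 64.8% of the 9365 promoters of tested genes and 48.5% of all 35116 promoters. Member entries on chromosome 8 were left out, and no promoter was used for SLC2A3, VEGFA, NDRG1, BNIP3L and HILPDA. The median log2 difference with thapsigargin was -0.48 over the 22 tested members with a core and -0.44 over the 8 without. A match is only a match of letters. Only 1 annotated start per gene was searched, so cores near any other start would be missed. Whether the start searched is the main one in these cells was not tested.

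**Figure D3:**
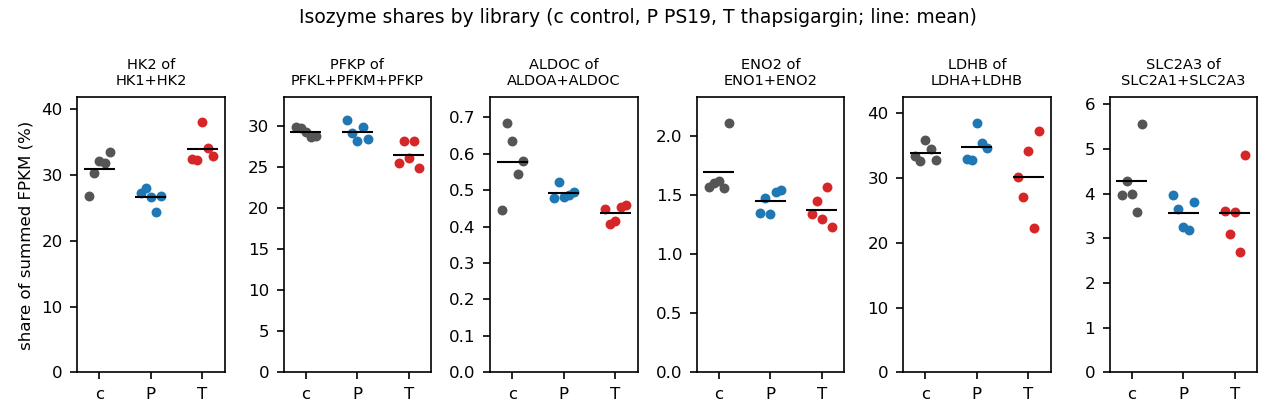
Share of summed FPKM in percent (vertical axes from 0, a separate scale for each panel) taken by HK2, PFKP, ALDOC, ENO2, LDHB and SLC2A3 within their isozyme pairs or trio, for each library of control (c), PS19 (P) and thapsigargin (T), with the group mean as a line. PFKP falls from 29.2% to 26.5% with thapsigargin without overlap, and LDHB spreads from 22.2% to 37.3% among thapsigargin libraries.

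Levels of isozymes can be set against each other because FPKM corrects for transcript length. HK2 made up 30.9 ± 2.56% of HK1 and HK2 together in control, 26.6 ± 1.39% in PS19 and 33.9 ± 2.39% in thapsigargin libraries (SD, n = 5), with overlapping ranges between control and either group. PFKP made up 29.2 ± 0.582% of the phosphofructokinase subunits in control and 26.5 ± 1.54% in thapsigargin libraries, and the ranges of 28.6% to 29.9% and 24.8% to 28.1% did not overlap. LDHB made up 33.8 ± 1.35% of lactate dehydrogenase mRNA in control and 30.2 ± 5.90% in thapsigargin libraries, where the 5 libraries ranged from 22.2% to 37.3% and overlapped the controls. ALDOC made up 0.578 ± 0.0907% of aldolase mRNA in control, 0.493 ± 0.0180% in PS19 and 0.437 ± 0.0243% in thapsigargin libraries. Both ranges overlapped that of the controls. ENO2 made up 1.695 ± 0.235% of enolase mRNA in control, 1.449 ± 0.0968% in PS19 and 1.379 ± 0.132% in thapsigargin libraries. Its control range of 1.566% to 2.114% lay above the PS19 range of 1.344% to 1.546%. The thapsigargin range of 1.233% to 1.57% just reached the controls. All 23 glycolysis genes together took 2.23 ± 0.0772% of summed FPKM in control, 2.26 ± 0.0380% in PS19 and 1.95 ± 0.0493% in thapsigargin libraries, with no overlap between control and thapsigargin. Their summed level was 11840 ± 709.5 FPKM in control and 11590 ± 668.2 FPKM in thapsigargin libraries, a difference smaller than the SD. GAPDH was the largest part of that sum and averaged 4786 FPKM in control and 5728 FPKM in thapsigargin libraries. Of the 21 glycolysis genes tested, 20 had a log2 difference below 0 with thapsigargin. The FPKM summed over all genes had a median of 539256 in control and 600442 in thapsigargin libraries. No test was run on these shares.

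The hypoxia genes were led by HIF1A, which encodes the oxygen-regulated alpha subunit of HIF. It was at 23.2, 22.5, 29.8, 31.4 and 31.02 FPKM in control and 11.7, 8.15, 20.7, 11.7 and 17.6 FPKM in thapsigargin libraries. Every thapsigargin library was below every control library, with library 2 lowest and library 3 highest, and the log2 difference was -1.01 (SE 0.21, adjusted p = 0.0014). An antisense transcript overlaps HIF1A, and whether the authors' estimation used the strand of the reads is not given in the sources used here.

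The 2 prolyl hydroxylases among the members, which mark HIF alpha for destruction and are themselves HIF targets, fell together. EGLN3 was at 5.27, 5.54, 5.18, 4.99 and 6.19 FPKM in control and 2.40, 1.98, 2.66, 2.68 and 2.63 FPKM in thapsigargin libraries. The thapsigargin values were tightly grouped and lay below all controls, with a log2 difference of -1.0 (SE 0.096, adjusted p = 7.5e-06). EGLN1, the main oxygen sensor in most cells, was at 19.5, 18.4, 20.7, 22.3 and 25.5 FPKM in control and 9.88, 8.41, 16.4, 11.1 and 14.2 FPKM in thapsigargin libraries. Library 3 came closest to the controls without reaching them, and the log2 difference was -0.83 (SE 0.16, adjusted p = 0.00087).

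VEGFA, the growth factor for blood vessels, went the other way. It was at 22.3, 30.3, 24.8, 24.2 and 31.5 FPKM in control and 50.1, 47.9, 48.4, 51.8 and 47.3 FPKM in thapsigargin libraries. The thapsigargin libraries all lay above the controls and close together, with a log2 difference of 0.88 (SE 0.096, adjusted p = 2e-05). It was the only hypoxia gene that rose, except under quantile normalization, where ANKRD37 also passed as higher. STC2 also rose, from 24.2 ± 3.86 to 54.9 ± 2.55 FPKM, in a further list of hypoxia targets. The paper lists VEGFA among genes regulated by IRE1, a sensor of ER stress, and reports that gene set as induced by thapsigargin.

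**Figure D4:**
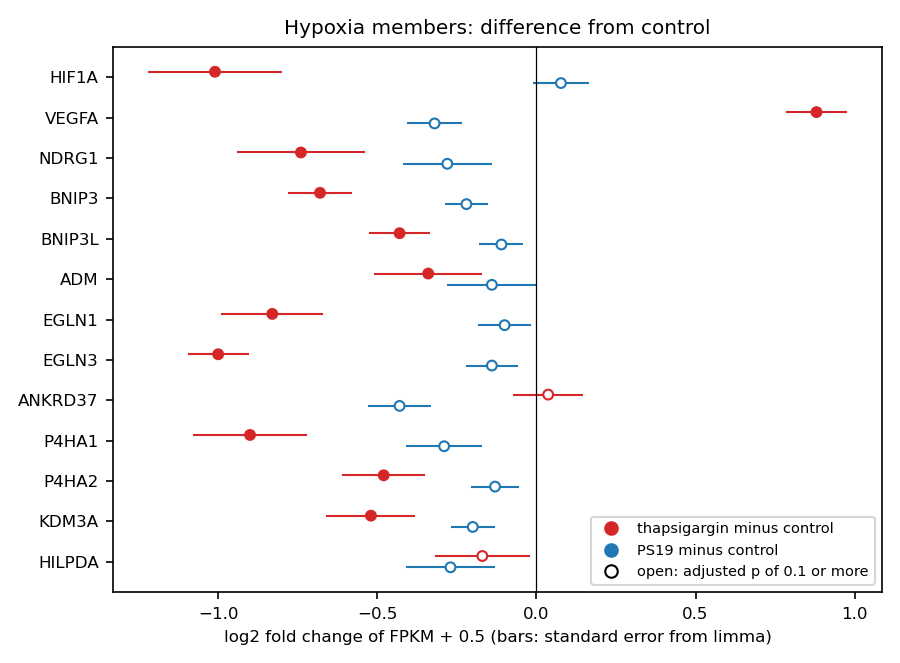
Log2 fold change of FPKM + 0.5 (horizontal axis) for the 13 hypoxia genes tested, for thapsigargin minus control (red) and PS19 minus control (blue), with standard errors as bars and filled points where the adjusted p was below 0.1. With thapsigargin VEGFA stands alone on the right at 0.88 while HIF1A and EGLN3 lie near -1.0, and 12 of the 13 open PS19 points lie left of 0.

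BNIP3 and BNIP3L encode receptors that direct mitochondria to autophagy. BNIP3 was at 48.04, 58.5, 56.05, 47.97 and 56.8 FPKM in control and 34.1, 27.3, 36.3, 30.8 and 37.8 FPKM in thapsigargin libraries. There was no overlap, and the log2 difference was -0.68 (SE 0.1, adjusted p = 0.00015). BNIP3L gave -0.43 (SE 0.096, adjusted p = 0.0022), also without overlap. NDRG1, a stress-responsive gene strongly induced by hypoxia, was at 10.8, 17.1, 18.02, 17.6 and 21.1 FPKM in control and 7.68, 6.98, 12.6, 9.20 and 13.7 FPKM in thapsigargin libraries. Control library 1 was lower than thapsigargin libraries 3 and 5, so the groups overlapped, and the log2 difference was -0.74 (SE 0.2, adjusted p = 0.0072). ADM, a vasodilator peptide, was low at 1.94 to 3.89 FPKM in control and 1.82 to 2.72 FPKM in thapsigargin libraries and gave -0.34 (SE 0.17, adjusted p = 0.092). That call was lost in 10 alternatives, among them median-ratio and quantile scaling, no filter, an adjusted p of 0.05, and leaving out control library 1, 2 or 5 or thapsigargin library 3, 4 or 5, with adjusted p up to 0.73.

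P4HA1 and P4HA2 encode the collagen prolyl hydroxylase subunits. P4HA1 was at 11.9, 17.3, 17.6, 18.9 and 21.8 FPKM in control and 7.42, 6.24, 12.03, 9.40 and 11.2 FPKM in thapsigargin libraries. The groups touched only because control library 1 was low, just under thapsigargin library 3, and the log2 difference was -0.9 (SE 0.18, adjusted p = 0.0014). P4HA2 gave -0.48 (SE 0.13, adjusted p = 0.0066), without overlap. KDM3A, a histone demethylase, gave -0.52 (SE 0.14, adjusted p = 0.0069), with overlap.

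The 2 hypoxia genes that did not pass were ANKRD37 and HILPDA. ANKRD37, an ankyrin repeat protein known as a hypoxia target, was at 1.87, 1.96, 1.98, 1.46 and 2.11 FPKM in control and 1.51, 1.89, 2.22, 1.90 and 2.18 FPKM in thapsigargin libraries. Thapsigargin libraries 3 and 5 were above every control library and the other 3 were within the control range, with a log2 difference of 0.037 (SE 0.11, adjusted p = 0.78) and a 95% interval of -0.2 to 0.28. It passed only under quantile normalization, as higher, and its sign turned under TPM scaling and without control library 4 or thapsigargin library 3. HILPDA, a lipid droplet protein, gave -0.17 (SE 0.15, adjusted p = 0.32) with a 95% interval of -0.49 to 0.15, and it passed as lower under TPM scaling and without control library 4. CA9, a surface carbonic anhydrase and classic hypoxia marker, was nearly absent at 0.03 to 0.190 FPKM in control and 0 to 0.08 FPKM in thapsigargin libraries, under the filter. It passed as lower in the fit without a filter (adjusted p = 0.029), at levels where the fold cannot be read.

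Promoters of a pair of hypoxia genes are shown because both hold several cores while their mRNA took different courses with thapsigargin, BNIP3 having fallen and ANKRD37 not having passed. The stretches are the 250 bases before the start in the RefSeq table for GRCh38.p14, with the same letters in capitals. BNIP3 lies at chr10:131981924-131982173 on the minus strand and ANKRD37 at chr4:185396591-185396840 on the plus strand.
BNIP3: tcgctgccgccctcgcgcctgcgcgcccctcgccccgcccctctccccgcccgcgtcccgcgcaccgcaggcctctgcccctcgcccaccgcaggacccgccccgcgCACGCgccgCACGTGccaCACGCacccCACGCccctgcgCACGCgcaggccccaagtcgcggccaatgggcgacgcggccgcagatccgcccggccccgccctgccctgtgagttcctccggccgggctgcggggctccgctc
ANKRD37: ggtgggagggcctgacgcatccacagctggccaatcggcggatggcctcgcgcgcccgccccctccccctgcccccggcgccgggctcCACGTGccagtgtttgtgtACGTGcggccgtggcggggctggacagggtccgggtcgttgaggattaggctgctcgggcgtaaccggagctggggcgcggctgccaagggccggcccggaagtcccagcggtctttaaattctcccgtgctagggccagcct

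BNIP3 has 5 separate cores and ANKRD37 has 2, and each has 1 CACGTG. Of the 10 hypoxia members whose promoter was searched, 8 (80.0%) held a core in the window of 300 bases, against 15 of the 22 glycolysis members (68.2%).

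With PS19 brain lysate none of the 34 members tested passed an adjusted p of 0.1 in limma, where 0.0170% of all genes tested passed as higher and 0.0255% as lower. An unadjusted p below 0.05 was reached by 10 members (29.4%), all of them lower in PS19, and by 706 of all genes tested (6.01%). The 5 glycolysis genes among them were HK2, PFKFB4, ENO2, PDK1 and SLC2A1, and the 5 hypoxia genes were VEGFA, BNIP3, ANKRD37, P4HA1 and KDM3A. Both comparisons use the same control libraries. The median log2 difference was 0.0064 over the glycolysis genes, 10 of 21 of which were below 0, and -0.20 over the hypoxia genes, 12 of 13 of which were below 0, beside -0.015 over all genes tested, 57.1% of which were below 0.

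ANKRD37 had the smallest unadjusted p of the members in this comparison. Its values were 1.58, 1.36, 1.05, 1.11 and 1.24 FPKM in PS19 libraries 1 to 5. Only PS19 library 1 reached into the control range, and the log2 difference was -0.43 (SE 0.1, adjusted p = 0.36). VEGFA was at 20.7, 23.1, 19.6, 21.7 and 20.1 FPKM in PS19 libraries. Its groups overlapped only at PS19 library 2 against the lowest control library, and the log2 difference was -0.32 (SE 0.086, adjusted p = 0.47). BNIP3 was at 46.5, 47.5, 48.1, 40.4 and 45.9 FPKM in PS19 libraries, of which library 4 was the lowest and library 3 reached the control range. Its log2 difference was -0.22 (SE 0.068, adjusted p = 0.62). KDM3A gave -0.2 (SE 0.069, adjusted p = 0.74).

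The glycolysis genes with the largest PS19 differences were also lower rather than higher. HK2 was at 15.2, 15.2, 15.9, 14.97 and 15.99 FPKM in PS19 libraries, a narrow range above control library 1 and below the other 4 control libraries. Its log2 difference was -0.22 (SE 0.081, adjusted p = 0.77). SLC2A1 was at 23.8, 23.8, 24.4, 25.3 and 27.2 FPKM in PS19 libraries, of which 3 lay in the lower part of the control range and 2 just under it, and gave -0.2 (SE 0.074, adjusted p = 0.78). PFKFB4 gave -0.26 (SE 0.12, adjusted p = 0.83) and PFKFB3, its relative, gave -0.14 (SE 0.089, adjusted p = 0.85). PDK1 gave -0.22 (SE 0.091, adjusted p = 0.81), ALDOC -0.22 (SE 0.1, adjusted p = 0.83) and ENO2 -0.18 (SE 0.071, adjusted p = 0.8). The abundant enzymes barely differed. The 95% interval of the log2 difference was -0.21 to 0.1 for PGK1, -0.097 to 0.11 for PGAM1, -0.1 to 0.25 for GAPDH and -0.16 to 0.11 for LDHA, so changes of the size seen with thapsigargin in PGK1 and PGAM1 lie outside their PS19 intervals. HIF1A gave 0.077 (SE 0.088, adjusted p = 0.89).

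Control library 1 bore on the PS19 result. It was the lowest control library for 16 of the 34 members (47.1%), against 27.1% of all genes tested, and was the highest for none, while control library 5 was the highest for 16 (47.1%), against 27.3% of all genes. For the hypoxia genes the median log2 deviation from the control mean was -0.15 in control library 1 and 0.18 in control library 5, beside -0.02 and 0.03 over all genes. Without control library 1, HK2 (log2 difference -0.31, adjusted p = 0.065) and P4HA1 (log2 difference -0.41, adjusted p = 0.059) passed as lower in PS19, in a fit that called 3 genes higher and 10 lower over all genes, against 2 and 3 with every library. HK2 and P4HA1 passed in no other alternative, leaving out control library 5 among them. Over all alternatives the log2 difference ran from -0.31 to -0.17 for HK2 and from -0.41 to -0.2 for P4HA1. The part of control library 1 in the other results was not tested beyond leaving it out.

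**Figure D5:**
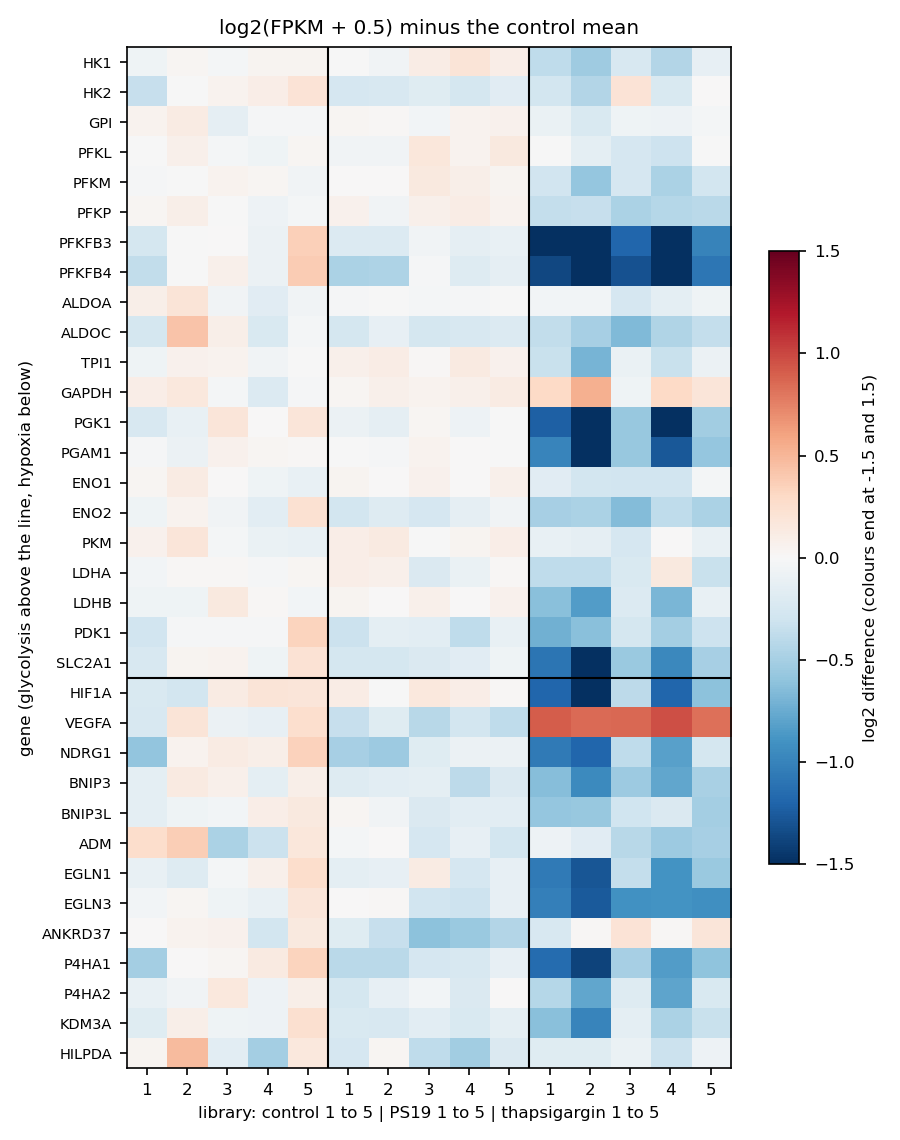
Log2(FPKM + 0.5) minus the control mean, as color from -1.5 (blue) to 1.5 (red), for the 34 members tested (rows, glycolysis above the line and hypoxia below) in control libraries 1 to 5, PS19 libraries 1 to 5 and thapsigargin libraries 1 to 5 (columns). The thapsigargin block is mostly blue with a red VEGFA row and a mostly red GAPDH row, library 2 is darkest for PGK1, PGAM1, SLC2A1 and HIF1A, and library 3 is paler.

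The thapsigargin libraries also differed among themselves. Library 2 was the lowest for 17 of the 34 members (50%), against 44.4% of all genes tested, and had the highest summed FPKM of 637687. Library 3, which had the lowest summed FPKM of the group at 551499, was the highest for 10 members (29.4%), against 40.5% of all genes. Library 5 was the highest for 14 members (41.2%), against 14.5% of all genes. Variation within the group was larger for the hypoxia genes, with a median coefficient of variation of 18.2%, than for the glycolysis genes at 14.1% and all genes at 15.4%, and PGK1 reached 48.5%. In the control group these medians were 13.2%, 8.57% and 9.06%, and in the PS19 group 8.70%, 4.27% and 6.59%. Whether summed FPKM took part in the differences between libraries was not tested. With each library left out in turn, 13 to 16 glycolysis genes and 9 to 11 hypoxia genes fell with thapsigargin. In the same fits 4684 to 5472 of the 11753 genes tested fell.

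Genes around the same pathways were read from further lists, whose counts stand beside 26.0% higher and 43.4% lower over all genes tested. Among 10 tested genes of the HIF subunits and oxygen sensing, 2 rose and 6 fell with thapsigargin (median -0.36). EPAS1, which encodes another HIF alpha subunit, fell from 1.84 ± 0.249 to 0.598 ± 0.204 FPKM. ARNT, the constant partner of the alpha subunits, fell from 21.3 ± 1.64 to 15.5 ± 2.55 FPKM. HIF1AN, an asparaginyl hydroxylase that restrains HIF, fell from 9.45 ± 1.01 to 5.33 ± 1.18 FPKM, whereas VHL, the ubiquitin ligase subunit that removes HIF alpha, rose from 31.3 ± 1.23 to 44.0 ± 5.04 FPKM. Among 28 other hypoxia targets 4 rose and 17 fell (median -0.40). CITED2, a HIF-induced regulator that competes with HIF for its coactivator, fell from 45.1 ± 3.96 to 16.6 ± 4.61 FPKM, with ZNF395 and PPFIA4 also lower at log2 differences of -1.28 and -1.24. Adjusted p in limma was at most 0.00345 for every gene named from these lists.

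Among 13 other glycolysis isozymes and side steps 3 rose (23.1%) and 6 fell (46.2%), shares close to those of all genes tested (median -0.066). PCK2, the mitochondrial enzyme that makes phosphoenolpyruvate, rose from 12.4 ± 1.39 to 35.2 ± 3.92 FPKM, and ENO3, the muscle enolase, rose from 1.67 ± 0.241 to 3.77 ± 0.788 FPKM. PFKFB2, a further PFKFB enzyme, fell from 2.89 ± 0.246 to 1.88 ± 0.204 FPKM, and SLC2A12, another glucose transporter, gave a log2 difference of -0.71. Among 14 genes of pyruvate and lactate fate 5 rose and 8 fell (median -0.25). PDHA1, a subunit of pyruvate dehydrogenase, rose from 70.2 ± 4.42 to 92.0 ± 8.54 FPKM and PC, pyruvate carboxylase, rose from 5.26 ± 0.199 to 7.74 ± 0.861 FPKM. SLC16A1, the lactate transporter MCT1, fell from 74.9 ± 8.78 to 45.7 ± 12.6 FPKM, and PDP1, a pyruvate dehydrogenase phosphatase, gave a log2 difference of -0.81. Of 7 genes of the pentose phosphate pathway, which branches off before phosphofructokinase, 2 rose, among them PGLS at 0.58, and 2 fell (RPIA at -0.54 and PGD at -0.22). The highest adjusted p among the genes named from these lists was 0.0166, for PGD. None of the genes in these lists passed in the PS19 comparison with limma. An unadjusted p below 0.05 was reached there by 3 of the 28 other hypoxia targets, 24 of which were below 0 (median -0.12), by 2 of the 13 other glycolysis genes, by 1 of the 7 pentose phosphate genes and by none of the other lists of these pathways.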

How the data were processed

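RNA-Seq values of 15 libraries were used, 5 per group, grouped by the condition and number in their labels. Stranded mRNA libraries were sequenced, and the authors cleaned reads (SOAPnuke), aligned to GRCh38.p12 (HISAT2 2.0.4) and quantified genes (RSEM 1.2.12). What they deposited is FPKM for each gene in each library, with no stated scaling across libraries. Versions are those of the submitters' processing notes, which also list DESeq2 1.4.5. The first control column also held text in some rows that name no gene. The 2487 rows without a gene were left out, and no sample column was left unused.

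Depth per library is not in the values. Low values were tested for steps of whole reads, and 77 of 3149 genes examined (2.45%) showed them (90% or more of values below 3 FPKM no further than 0.15 reads from a whole number), too few to recover reads, so no count model was fitted.

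Genes averaging 1 FPKM or more (11753) were tested as log2(FPKM + 0.5) with limma 3.58.1 in R 4.3.3 (mean-variance trend, two-sided), thapsigargin against control and PS19 against control, each in its own fit of 10 libraries, with Benjamini-Hochberg adjustment over all of them and a threshold of 0.1. Log2 differences are on that scale, which understates the change of low genes. The rule for members used gene symbols and no measured value, but members, gene lists, tests and alternatives were chosen with earlier results of these data known. All 37 members are named, and from each further list up to 4 genes of smallest adjusted p below 0.1 per comparison, of which 1 is not reported here. The fits were tested on simulated data. Alternatives covered the pseudocount (0.1 and 1), the filter (none, and a mean of 5 FPKM), TPM, median-ratio and quantile scaling, a joint fit of all 15 libraries, a block for replicate number, a threshold of 0.05, limma with robust variances or without trend, and each library left out. Promoters were matched by symbol to a RefSeq table of GRCh38.p14, a later patch release than that of the files, from which no file coordinates were taken.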

Additional observations from a re-analysis of the deposited data

Results flagged for a closer look

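In 111 groups of 5 libraries, Dixon's criterion set 3 values apart from the rest of their group, and chance alone sets apart about 1 in 20 groups. LDHA was at 1049 FPKM in thapsigargin library 4, while the other 4 thapsigargin libraries held 723.1 to 807.9 FPKM. BNIP3 was at 40.4 FPKM in PS19 library 4, below the other 4 PS19 libraries at 45.9 to 48.1 FPKM. CA9 was listed at 0.14 FPKM in PS19 library 3 and at 0 to 0.03 FPKM in the other 4.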

How the results depend on the processing

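Of the 27 members called with thapsigargin, 21 kept their direction and call in every alternative that gave a value and 6 (ALDOC, TPI1, GAPDH, ENO1, LDHA and ADM) lost the call in at least 1. The count of glycolysis genes that rose, 1 as reported, was 0 without the filter, under TPM, under quantile normalization and at an adjusted p of 0.05, and 0 to 1 with each library left out. The count of hypoxia genes that rose was 2 under quantile normalization. In the PS19 comparison, 0 to 1 glycolysis genes and 0 to 1 hypoxia genes passed as lower with each library left out. Signs turned for members that did not pass. With thapsigargin under median-ratio scaling GPI was 0.038, ALDOA 0.027 and PKM 0.015, and under TPM ANKRD37 was -0.1. With PS19 under TPM GPI was -0.00088 and PGAM1 was -0.017, and under quantile normalization GPI was -0.014, PGAM1 -0.039 and ENO1 -0.0019. With each library left out in turn, ANKRD37 ran from -0.031 to 0.1 with thapsigargin, GPI ran from -0.012 to 0.054 with PS19, ALDOA ran from -0.059 to 0.03 with PS19, PGAM1 ran from -0.015 to 0.022 with PS19, LDHA ran from -0.056 to 0.022 with PS19. The causes of these changes were not tested.

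Samples with the same replicate number did not all deviate together (correlations of deviations from the group means of -0.128 to 0.609 with thapsigargin and -0.209 to 0.325 with PS19), so the numbers were not taken to pair them. With the replicate block, 15 glycolysis genes fell and 1 rose, and 10 hypoxia genes fell and 1 rose, with thapsigargin, and no member passed with PS19. Over all genes the block gave 3237 higher and 5345 lower with thapsigargin, and 6 higher and 7 lower with PS19 against 2 and 3 without it. Not every sample correlated best with its own number. Over all genes PS19 calls were few in every fit, 3 higher and 0 lower without the filter, none under TPM or with all 15 libraries in 1 fit, and 0 to 3 higher and 0 to 10 lower with each library left out. ADM, EGLN3 and ANKRD37 were not tested at a mean of 5 FPKM. Without the filter SLC2A3 and CA9 passed as lower with thapsigargin, and SLC2A3, SLC16A3 and CA9 did not pass with PS19 (adjusted p of 0.746 to 0.86).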
